A study of Mus musculus with 11 samples.

Results

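Gene expression of the R5 fraction was compared with that of the R2 fraction of erythroid cells sorted from mouse fetal liver. Livers of C57/Bl6 embryos at E14.5, in mid-gestation, were stained for Ter119, an antigen of maturing red cells, and for CD71, the transferrin receptor, and were sorted into gates named R1 to R5. R5 was represented by 2 arrays and R2 by 3 arrays, which makes 5 of the 11 arrays of the series; R1 had 2 arrays, R3 had 3 and R4 had 1. The arrays were chosen by gate label alone, and all shared strain, age and tissue, with no treatment or engineered allele listed. Total RNA of each sort was reverse transcribed, labelled with Cy5 and hybridised to an oligonucleotide array with 45037 probe sets other than controls. In this sorting scheme R2 cells carry much CD71 and little Ter119 and are mostly proerythroblasts, and R5 cells carry much Ter119 and little CD71 and are mostly late erythroblasts and reticulocytes. No label stated whether the arrays of a gate came from separate litters. The p-values rest on the spread between arrays of the same gate, which may in part be technical. That spread was pooled over R1, R2, R3 and R5, so it is not that of the R5 and R2 arrays alone. A gate holds cells of neighbouring stages and may hold other cells of the liver, and a change in such a sort can come from more cells of a type or from more RNA per cell, which cannot be told apart here.

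Erythroid cells divide several times between the proerythroblast and the reticulocyte while they fill with hemoglobin, build the membrane skeleton that keeps the red cell flexible, condense the nucleus and expel it. The transcription factor Gata1 with its partners and Klf1 switch on the globin, heme and membrane genes, and erythropoietin signalling through Jak2 and Stat5 keeps the early cells alive. In the last stages ribosomes, mitochondria and other organelles are removed by ubiquitin-dependent proteolysis and by autophagy.

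Signal intensities were used as deposited, on a scale where the array means after trimming averaged 500. On this scale the median intensity of a probe set was 120.4 and 108 in R5, against 53.6, 58.4 and 66.9 in R2, and the percent of all signal that the 100 brightest probe sets held was 15.6 and 17.0 in R5, against 9.69, 8.16 and 10.9 in R2. The groups thus did not overlap in either measure. The difference between a 3′ and a 5′ control probe set of pyruvate carboxylase (Pcx), a sign of RNA or cDNA length, was 4.62 and 2.27 in R5, against 0.75, 1.36 and 1.84 in R2 on the log2 scale, that of actin (Actb) was 0.43 and 0.44 in R5, against 0.32, 0.79 and 0.71 in R2, and that of Gapdh was 0.23 and 0.20 in R5, against -0.13, -0.22 and -0.46 in R2. That of the transferrin receptor was 2.89 and 2.04 in R5, against 2.09, 3.20 and 1.63 in R2. The gates did not overlap in the differences of Pcx and Gapdh, but they overlapped in those of Actb and the transferrin receptor. The part of these differences in the results was not tested. The summed intensity of 14 hepatocyte markers was 90101 and 257619 in R5, against 3922.5, 11911 and 6706 in R2, and its part in the results was not tested either. The R5 arrays correlated with each other at r = 0.83 across probe sets, against 0.89 to 0.91 for pairs of R2 arrays. Replicate 1 of R5 correlated at 0.81 to 0.83 with the R2 arrays, 0.84 to 0.86 with the R3 arrays and 0.87 with the R4 array. Replicate 2 of R5 correlated at 0.74 to 0.77 with the R2 arrays, 0.83 to 0.86 with the R3 arrays and 0.84 with the R4 array. The R5 arrays were thus no closer to each other than to R3 or R4 arrays. The counts depended on replicate 2 of R5: 1672 probe sets were called without it and 7678 with all arrays. Of the 162 called genes that the fixed rule for named genes selected, 75 kept their call whichever of 10 arrays was left out, 84 lost it without replicate 2 of R5 and 20 lost it without replicate 1 of R5. A gene is called below "firm" where its call was kept in all 10 of these fits, and for other genes the text gives a fit in which the call was lost, or the number of such fits. For most lists the counts without replicate 2 of R5 stand beside the list.

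A linear model of log2 intensity in limma, with a mean for each gate, called a probe set when its Benjamini-Hochberg adjusted p over all 45037 probe sets was under 0.05. By this rule 7678 probe sets (17.0%) differed, 4515 (10.0%) higher in R5 and 3163 (7.02%) lower in R5. Thus 58.8% of called probe sets were higher in R5, but this share fell to 17.6% when each array was centred on its median (1997 higher and 9349 lower) and was 45.2% after quantile normalization (2702 higher and 3276 lower). Each gene was then represented by its brightest probe set. Of 18193 genes, 3801 (20.9%) were called, 2107 (11.6%) higher in R5 and 1694 (9.31%) lower in R5, and these shares are the background for every list count. In 10333 genes (56.8%) the R5 arrays did not overlap the R2 arrays, with R5 higher in 34.4% of genes and lower in 22.4%.

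The dim end of the scale moved as a whole. Over all genes the median log2 change was 0.48, and over the 6433 genes that lay below the median probe set in both gates it was 1.38. Among the other 11760 genes the median was -0.17, and 14.7% were called higher in R5 and 14.4% lower. Centring each array on its median lowers every change by 0.94, so that a positive change smaller than this turns negative under that centring. Of the 162 called named genes 31 lost their call after centring and 25 after quantile normalization. Where not stated beside the gene, the first were Hba-a2, Uros, Meis1, Rrm2, Nusap1, Psme4, Hdac6, Cd24a, Icam4, C1qb, C1qc, Ltf and Itga4 among genes described below. The second were Tfr2, Aco1, Meis1, Rrm2, Rbl1, Pklr, Hdac3, Cd24a, Itgb1, Cd44, Ltf and Itga4. In 18 of the 162 another probe set of the gene changed with the opposite sign, and no such probe set was called. Over bright and dim genes together, 1058 called genes were more than 8-fold higher in R5, whereas 89 were more than 8-fold lower.

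**Figure D1:**
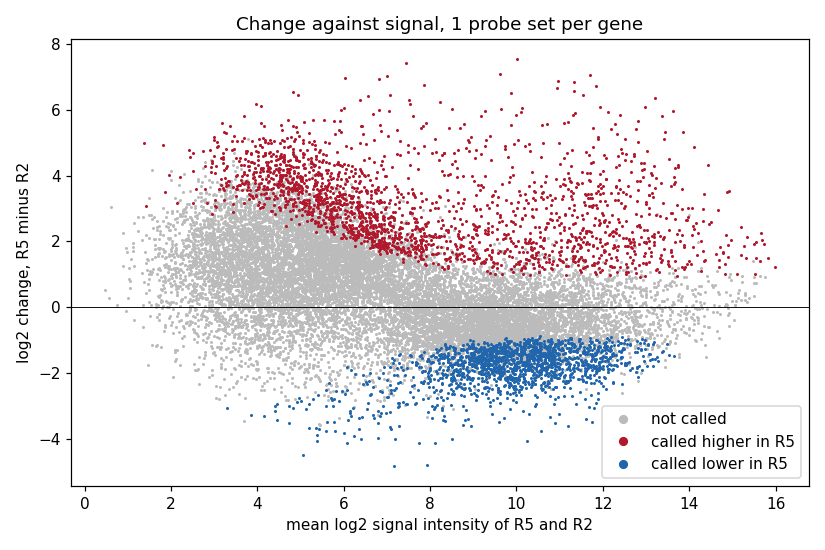
Log2 change of each of 18193 genes (vertical axis, R5 minus R2) against the mean log2 signal intensity of both gates (horizontal axis), with genes called higher in R5 in red, called lower in R5 in blue and the rest in grey. Dim genes lie above the zero line as a group, with a median of 1.38, and the called rises reach further from zero than the called falls.

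The gate labels were first set against markers of early and late erythroblasts. All 5 measured late markers were higher in R5 (Alas2, Slc4a1, Epb42, Xpo7 and Ube2l6), with a median log2 change of 5.57. Alas2, Slc4a1 and Epb42 lost their calls without replicate 2 of R5, where their changes were 5.99, 4.56 and 3.78. Xpo7, a nuclear export receptor known from erythroid nuclear condensation, read 63883 and 99463 in R5, against 1398, 2668 and 767 in R2. Its change was 5.81 ± 0.49 (SE, limma adjusted p = 4.98e-05), a firm call. The early markers were mixed. Kit, the receptor of stem cell factor, read 1527 and 499 in R5, against 3523, 3904 and 3494 in R2, so that every R5 array lay below every R2 array. The change of Kit was -2.06 ± 0.43 (SE, limma adjusted p = 0.00889) and lost its call without replicate 2 of R5 (limma adjusted p = 0.0884). Cd44, an adhesion receptor that erythroblasts lose as they mature, was lower in R5 by the same test (-1.47, limma adjusted p = 0.045), whereas Itga4, an integrin subunit, was higher (1.04, limma adjusted p = 0.0473); the first lost its call in 7 and the second in 8 of the 10 fits that left out 1 array. Myb, Gata2 and Epor were not called, with changes of -1.0, 1.25 and 0.17.

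Tfrc, which encodes CD71 itself, went against the surface level that defines the gate. Its mRNA read 35443 and 71814 in R5, against 11719.5, 14569 and 23088 in R2, and both R5 arrays lay above all R2 arrays. The change was 1.68 ± 0.39 (SE, limma adjusted p = 0.0147), and the call was lost without replicate 2 of R5 (limma adjusted p = 0.124) and without replicate 1 of R2 (limma adjusted p = 0.0593). It was also lost after centring (limma adjusted p = 0.295) and after quantile normalization (limma adjusted p = 0.123). On the deposited scale the transcript was thus not lower in the gate that is set on low surface CD71.

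**Figure D2:**
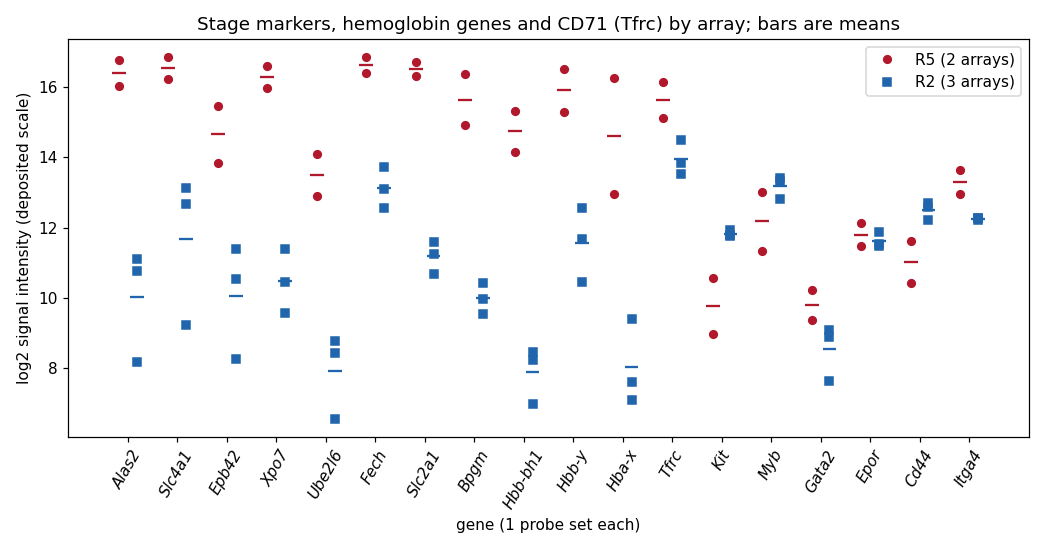
Log2 signal intensity on the deposited scale (vertical axis) of 18 genes on each R5 array (red circles) and each R2 array (blue squares), with horizontal bars at the means. Alas2, Fech, Slc2a1 and the embryonic globin genes are far higher in R5, Tfrc is higher by less, Kit and Cd44 are lower, and the R5 arrays stand apart from each other at Hba-x.

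Globin genes encode the chains of hemoglobin, and 5 of 6 measured with a probe set of their own were higher in R5, against the 11.6% of all genes, with a median log2 change of 5.45. The embryonic beta-like chain Hbb-bh1 read 41089 and 18301 in R5, against 127, 302 and 354 in R2, a change of 6.84 ± 0.64 (SE, limma adjusted p = 8.13e-05) and a firm call. Hbb-y, the other embryonic beta-like chain, read 93274 and 40208 in R5, against 1413, 6081 and 3301 in R2 and changed by 4.33 ± 0.90 (SE, limma adjusted p = 0.00878), also firmly. Both embryonic genes were brighter on replicate 1 of R5 than on replicate 2. The embryonic alpha-like chain Hba-x showed the same order with a wider gap, at 78466 and 8003 in R5, against 136, 680.1 and 195 in R2, and its call was lost without replicate 1 of R5 (limma adjusted p = 0.0546). The probe set annotated to Hbb-b2, an adult beta chain, read 28418 and 53199 in R5, against 85.9, 817 and 345 in R2. Its change of 7.07 ± 1.08 (SE, limma adjusted p = 0.0017) was firm.

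That adult gene has near-identical neighbours, and Hbb-b1, Hbb-bs and Hbb-bt had no probe set of their own. The probe set annotated to Hbb-b2 may read any of them, so its change cannot be given to Hbb-b2 itself. A second, dimmer probe set of Hbb-b2 changed by -2.50 ± 0.86 (SE, limma adjusted p = 0.0638), the opposite sign. The probe sets annotated to single adult alpha genes were dim. Hba-a1 read 139 and 23.7 in R5, against 7.53, 18.7 and 35.5 in R2. Hba-a2 read 295 and 489.9 in R5, against 95.9, 127 and 100.5 in R2. Hba-a1 was not called (1.75), and the change of Hba-a2 was 1.83, lost without replicate 2 of R5 (limma adjusted p = 0.155) or replicate 1 of R2 (limma adjusted p = 0.0563). Most adult globin signal lay instead on 4 probe sets that match several near-identical genes and name no single one. The 3 that match both adult alpha genes averaged 16.50, 16.28 and 16.46 in R5, against 13.49, 14.84 and 14.83 in R2, on the log2 scale. The one that matches the adult beta genes averaged 15.99 ± 0.13 in R5 and 14.71 ± 0.44 in R2 (SD, n = 2 and n = 3), a change of 1.28 ± 0.40 (SE, limma adjusted p = 0.0468). All 4 were called, and their R2 levels were already far above the R2 median over all probe sets of 5.89.

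Heme is made from glycine and succinyl-CoA by a chain of mitochondrial and cytosolic enzymes, and 5 of 7 measured members of the chain were higher in R5 and none lower, with a median change of 2.43. The count was between 3 and 6 over the fits without 1 array, and 3 without replicate 2 of R5. Alas2, the erythroid form of the first and rate-limiting enzyme, read 66008 and 110397 in R5, against 290.4, 2199 and 1747 in R2. Its change was 6.36 ± 1.21 (SE, limma adjusted p = 0.00551), and the call was lost without replicate 2 of R5 (limma adjusted p = 0.064). Fech, which inserts iron in the last step, read 85660.4 and 118112 in R5, against 6033, 8677 and 13430.5 in R2, a firm change of 3.50 ± 0.40 (SE, limma adjusted p = 0.000268). Urod and Ppox, which act between them, were also firmly higher in R5, by 2.43 ± 0.42 (SE, limma adjusted p = 0.00312) and 2.61 ± 0.44 (SE, limma adjusted p = 0.00288). Uros was called at 1.75 but not in 3 of the 10 fits. Alad and Cpox were not called, with changes of 0.91 and 1.18.

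Iron handling split in both directions. Of 15 measured genes 6 were higher in R5 and 3 lower, and the list's median of 0.42 was close to that of all genes and turned negative when arrays were centred on their medians (-0.52) or replicate 2 of R5 was left out (-0.08). The counts were 3 and 0 without replicate 2 of R5, 3 and 1 after quantile normalization, and 2 and 5 after centring. Slc25a37, mitoferrin, which carries iron into mitochondria, read 78970.4 and 122855 in R5, against 1940.1, 8084 and 7685 in R2, a firm change of 4.32 ± 0.66 (SE, limma adjusted p = 0.00166). Iscu, the scaffold on which iron-sulfur clusters are assembled, changed firmly by 2.79 ± 0.33 (SE, limma adjusted p = 0.000332), and Fth1, the ferritin heavy chain that stores iron, by 2.04 ± 0.32 (SE, limma adjusted p = 0.00206); the call of Fth1 was lost after centring (limma adjusted p = 0.0833) and quantile normalization (limma adjusted p = 0.0554). The 3 genes that fell were Flvcr1, a heme exporter, Tfr2, the second transferrin receptor, and Aco1, a cytosolic aconitase that also senses iron. Flvcr1 read 414 and 367 in R5, against 1559.9, 2476 and 2363 in R2, with a change of -2.42 ± 0.47 (SE, limma adjusted p = 0.00591), and it lost its call without replicate 2 of R5 (limma adjusted p = 0.0546); a second Flvcr1 probe set, below the median in both gates, changed by 2.04 without a call. Tfr2 and Aco1 changed by -1.19 and -1.30 and lost their calls in 4 of the 10 fits each, among them those without either R5 array.

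The membrane and its skeleton had a share of rises close to that of the globin genes, of which 5 of 6 rose. In the membrane list 16 of 19 measured genes were higher in R5 and none lower, with a median change of 2.69. That count was 7 without replicate 2 of R5, and it was 10, with 1 fall, when arrays were centred on their medians. Slc4a1, band 3, the anion exchanger and main anchor of the skeleton, read 77237 and 117398 in R5, against 603, 6536 and 8937 in R2. Epb42, protein 4.2, which binds band 3, read 14713 and 45105 in R5, against 310.4, 1486 and 2669 in R2. In both genes R2 replicate 1 was far lower than the other R2 arrays, and the changes of 4.86 ± 1.10 (SE, limma adjusted p = 0.0129) and 4.59 ± 0.91 (SE, limma adjusted p = 0.00668) lost their calls without replicate 2 of R5 (limma adjusted p = 0.104 and 0.0899). Dmtn, dematin, which bundles actin at the skeleton's junctions, read 17180.3 and 25094 in R5, against 388, 1018 and 1769 in R2 and changed firmly by 4.55 ± 0.52 (SE, limma adjusted p = 0.000271). Kel, the Kell blood group protein, read 30413 and 74158 in R5, against 2039, 4085 and 5180.2 in R2, and its change of 3.76 ± 0.53 (SE, limma adjusted p = 0.000984) was firm. The skeleton's beta-spectrin Sptb and ankyrin Ank1, which ties spectrin to band 3, were higher by 2.81 and 3.40; the call of Ank1 was firm, and that of Sptb was lost without replicate 2 of R5 (limma adjusted p = 0.134). The Rh protein Rhd was firmly higher by 3.01, whereas the 2.02 of its partner Rhag lost its call without replicate 2 of R5 (limma adjusted p = 0.192), without replicate 1 or 2 of R2, and after quantile normalization (limma adjusted p = 0.0678) or centring (limma adjusted p = 0.167). The adducins Add1 and Add2 were higher by 1.90 and 2.11, and tropomodulin Tmod1, which caps actin, by 3.71. These 3 lost their calls without replicate 2 of R5 (limma adjusted p = 0.0598, 0.0823 and 0.0849), and Add1 and Add2 also after centring (limma adjusted p = 0.143 and 0.0977). Of the 3 genes not called, Xk and Add3 changed by 1.77 and 0.18, and the water channel Aqp1 by -1.34.

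Promoter sequence was examined for the motif AGATAA, a form of the GATA motif that Gata1 binds, on both strands in the 250 bases before the annotated start. Other forms of the GATA motif were neither counted nor marked. Of the 16 membrane genes that rose, 12 had a promoter window in RefSeq (GRCm38.p6), and 5 of these windows (41.67%) held the motif, against 9.99% of all 32851 windows, 8.18% of the windows of all genes called higher in R5 and 5.73% of the windows of genes called lower. Among heme genes that rose, 1 of 5 windows held it, that of Alas2. Among globin genes that rose, 0 of 3 windows held it. For the 12 largest named rises it stood in 0 of 10 windows. For the 12 largest named falls it stood in 1 of 13 windows (7.69%), that of Helq. These few windows are a description of letters and do not show binding. The windows of Alas2 (chrX:150547167-150547416, plus strand), Epb42 (chr2:121036878-121037127, minus strand), Icam4 (chr9:21029182-21029431, plus strand) and Kel (chr6:41704326-41704575, minus strand) are shown 5′ to 3′ on the gene's strand because the motif lies at different distances in them; capitals mark the motif or its reverse complement.
Alas2: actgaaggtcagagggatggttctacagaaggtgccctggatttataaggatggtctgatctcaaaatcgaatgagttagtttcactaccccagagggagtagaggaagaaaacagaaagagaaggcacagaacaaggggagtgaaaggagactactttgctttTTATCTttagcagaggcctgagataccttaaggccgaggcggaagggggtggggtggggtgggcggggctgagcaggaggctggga
Epb42: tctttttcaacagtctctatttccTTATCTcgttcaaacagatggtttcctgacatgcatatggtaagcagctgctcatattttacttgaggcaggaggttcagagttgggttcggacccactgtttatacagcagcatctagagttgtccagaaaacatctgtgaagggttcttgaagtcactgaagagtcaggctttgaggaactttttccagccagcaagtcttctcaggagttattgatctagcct
Icam4: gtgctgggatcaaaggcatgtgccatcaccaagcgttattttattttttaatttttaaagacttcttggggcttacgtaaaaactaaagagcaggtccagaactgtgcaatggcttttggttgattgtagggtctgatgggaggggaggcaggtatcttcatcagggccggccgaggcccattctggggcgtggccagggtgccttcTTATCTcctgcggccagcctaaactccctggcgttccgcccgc
Kel: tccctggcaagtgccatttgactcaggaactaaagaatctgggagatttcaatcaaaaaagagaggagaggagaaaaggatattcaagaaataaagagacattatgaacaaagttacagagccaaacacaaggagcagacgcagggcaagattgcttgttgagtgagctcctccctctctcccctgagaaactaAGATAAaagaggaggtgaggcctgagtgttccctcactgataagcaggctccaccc
The first base of the motif lay 86 bases before the start in Alas2, 226 in Epb42, 43 in Icam4 and 56 in Kel. The other membrane genes with the motif were Rhd at 43 and Mpp1 at 147. Icam4, a blood group adhesion protein, read 11159 and 16568 in R5, against 2745, 2387 and 5055 in R2, a change of 2.08 ± 0.38 (SE, limma adjusted p = 0.00467) that was lost without replicate 2 of R5 (limma adjusted p = 0.0535). The motif CCNCNCCC, bound by Klf1 and related factors, stood in 59.96% of the windows of genes that rose, 58.98% of those of genes that fell and 45.93% of all windows. The E-box CANNTG stood in 62.08% of the windows of genes that rose, 54.36% of those of genes that fell and 66.22% of all windows.

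Among 20 erythroid regulators 9 were higher in R5 and 3 lower, with a median change of 0.81 that turned to -0.13 when arrays were centred on their medians. The counts were 6 and 3 without replicate 2 of R5, and 6 and 5 after centring. Trim10, a RING finger protein of erythroid cells, read 52794 and 92751 in R5, against 662, 2043 and 3941 in R2, a firm change of 5.32 ± 0.82 (SE, limma adjusted p = 0.00169). Sox6, a transcription factor that restrains embryonic globin genes and promotes maturation, changed firmly by 4.99 ± 0.66 (SE, limma adjusted p = 0.000638). Foxo3, a transcription factor of oxidative stress and autophagy genes, read 30048 and 45097 in R5, against 1824, 2000.2 and 2773 in R2, a firm change of 4.09 ± 0.32 (SE, limma adjusted p = 4.98e-05). E2f2, an E2F factor known for its part in erythroid cell cycle exit, was firmly higher by 4.28. Lower in R5 were Ldb1 (-2.09 ± 0.36 SE, limma adjusted p = 0.00328), which joins Gata1 to its partners, and Tcf3 (-2.11 ± 0.33 SE, limma adjusted p = 0.00205), the E protein of the same complex, both firm. Tal1 and Lmo2 of that complex were instead higher, by 2.13 and 1.88 (limma adjusted p = 0.00318 and 0.00923). The call of Tal1 was firm, and that of Lmo2 was lost in 1 of the 10 fits. Neither was called after centring (limma adjusted p = 0.0792 and 0.2). Bcl11a, the repressor of embryonic globin genes, read 1320.5 and 409.5 in R5, against 4453, 2849.8 and 4347 in R2, and its change of -2.37 lost its call without replicate 2 of R5 (limma adjusted p = 0.0981). Sox6 and Bcl11a thus moved in opposite directions.

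Progenitor genes as a list did not move one way. Of 19 measured, 1 was higher in R5 and 2 lower, against background shares of 11.6% and 9.31%, and the median of 0.35 turned to -0.59 after centring and to -0.41 without replicate 1 of R5, where none was higher and 4 lower. The 2 lower genes were Kit and Myc; Myc, the growth regulator, read 1889.6 and 464 in R5, against 3951, 3481 and 3716 in R2, a change of -1.99 ± 0.52 (SE, limma adjusted p = 0.0238) that was lost without replicate 2 of R5 (limma adjusted p = 0.22) or any 1 R2 array. Meis1 was called higher (2.27, limma adjusted p = 0.0494), but it lost the call in 9 of the 10 fits.

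Within erythropoietin signalling the called rises were among its targets. Of 17 genes 5 were higher in R5 and 2 lower, and the 4 named rises were all firm. Without replicate 2 of R5 the counts were 5 and 0, and after centring they were 4 and 7. Bcl2l1, the survival factor Bcl-xL, read 10485 and 24658 in R5, against 514, 712 and 621 in R2, a change of 4.72 ± 0.44 (SE, limma adjusted p = 7.95e-05). Pim1, a survival kinase induced by Stat5, read 14257 and 19339.8 in R5, against 1533, 1545 and 584 in R2, a change of 3.90 ± 0.46 (SE, limma adjusted p = 0.000325). Socs3 and Cish, feedback inhibitors of cytokine receptors, changed by 4.70 ± 0.59 (SE, limma adjusted p = 0.000465) and 3.02 ± 0.35 (SE, limma adjusted p = 0.000275). In each of these genes the lowest R5 array lay several-fold above the highest R2 array. The receptor Epor, the kinase Jak2 and the factor Stat5a were not called (0.17, 0.44 and -1.0). Stat5b and the glucocorticoid receptor Nr3c1, which sustains early erythroblast division, were lower (-1.95 and -1.53), and both lost their calls without replicate 2 of R5 (limma adjusted p = 0.133 and 0.119).

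Genes for ribosome production were lower in R5. Of 33 genes for ribosome biogenesis 18 were lower in R5 and none higher, against 9.31% and 11.6% of all genes, and the median change was -1.92. In 30 of the 33 the R5 arrays lay below all R2 arrays. The count of falls was 2 without replicate 2 of R5 and 30 without replicate 1 of R5; it was 7 and 9 without replicate 1 or 2 of R2, 11 without replicate 3 of R2, and 32 after centring. Pes1, which processes the RNA of the large subunit, read 686 and 238 in R5, against 4355, 3070.4 and 4218 in R2, a firm change of -3.25 ± 0.51 (SE, limma adjusted p = 0.00185). Noc2l, a nucleolar protein, read 463 and 114 in R5, against 3093, 2181 and 2652 in R2. Nolc1, another, read 1519.5 and 197 in R5, against 6963, 4706 and 5257 in R2. Replicate 2 of R5 was the lowest array in each. Their changes of -3.51 and -3.35 lost their calls without that array (limma adjusted p = 0.058 and 0.119), and a second Noc2l probe set changed by 0.30 without a call. The snoRNP proteins Nop56 and Nop58 were lower, at -2.60 and -3.01 on the log2 scale, and the RNA polymerase I subunit Polr1b was lower at -2.83. The call of Nop58 was firm, whereas those of Nop56 and Polr1b were lost without replicate 2 of R5 (limma adjusted p = 0.225 and 0.14), and that of Nop56 also without replicate 1 of R2. Fbl, Ncl and Npm1 had changes of -1.69, -1.03 and -1.15 that did not pass the test.

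For the proteins of the finished ribosome both counts lay below the background shares. Of 44 cytosolic ribosomal protein genes 3 were higher in R5 and 3 lower, and the median change of 0.16 turned to -0.79 after quantile normalization and to -0.28 without replicate 1 of R5. The falls numbered 10 after quantile normalization, 12 after centring, 9 without replicate 1 of R5 and 1 without replicate 2 of R5. Rpl37 read 643 and 137 in R5, against 4922, 4550.3 and 5642 in R2, a firm change of -4.08 ± 0.56 (SE, limma adjusted p = 0.000864); Rpl14 and Rpl12 were lower, at -2.50 and -2.46 and lost their calls without replicate 2 of R5 (limma adjusted p = 0.178 and 0.0647), Rpl14 also without replicate 1 of R2. Ribosomal protein genes have many near-identical pseudogenes, so single members are uncertain, and the called rise of Rps16 came from a probe set below the median in both gates. Aminoacyl-tRNA synthetases, which charge tRNAs, were called in 1 direction: 9 of 18 were lower in R5 and none higher, with a median of -1.31. The falls numbered 4 without replicate 1 of R2, 4 without replicate 2 of R2, 5 without replicate 3 of R2, 14 without replicate 1 of R5 and 18 after centring. Tars read 1379 and 637 in R5, against 4126, 3257 and 3830.3 in R2, a change of -1.99 ± 0.47 (SE, limma adjusted p = 0.016). Tars, Rars, Kars and Vars each lost their calls without replicate 2 of R5 (limma adjusted p = 0.152, 0.307, 0.152 and 0.205), Rars in 5 and Vars in 3 of the 10 fits, and 1 member of the list was called without that array.

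DNA replication genes were called mostly lower in R5. Of 31 replication genes 17 were lower and 1 higher, with a median change of -1.36, and in 26 the R5 arrays lay below all R2 arrays. The falls numbered 2 without replicate 2 of R5 and 24 without replicate 1 of R5; they numbered 11 without replicate 3 of R2 and 29 after centring. Mcm3, a subunit of the replicative helicase, read 2315 and 1412 in R5, against 8569, 10516 and 11680.4 in R2, a firm change of -2.49 ± 0.33 (SE, limma adjusted p = 0.00071). Cdc6, which loads the helicase, read 1771 and 1153 in R5, against 3273, 5524 and 7700.0 in R2, and its change of -1.86 lost its call without replicate 2 of R5 (limma adjusted p = 0.082). The helicase subunit Gins1 and the clamp loader subunit Rfc3 were lower, at -2.0 and -2.23 on the log2 scale with the same dependence (limma adjusted p = 0.112 and 0.112). The sliding clamp Pcna was not called (-0.21). The 1 rise was Rrm2, a ribonucleotide reductase subunit (1.10, limma adjusted p = 0.0461), whose call was lost in 8 of the 10 fits.

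Of 30 mitotic genes 5 were higher in R5 and none lower, with a median of 0.06 that turned to -0.88 after centring, where 1 gene was higher and 8 lower, and to -0.12 without replicate 2 of R5, where 2 were higher. The rises numbered 3 without replicate 1 of R2. Ube2c, the ubiquitin-conjugating enzyme that drives mitotic exit, read 65111 and 79709.6 in R5, against 11914, 7298 and 9359.5 in R2, a firm change of 2.95 ± 0.35 (SE, limma adjusted p = 0.00034). Mki67, the antigen of dividing cells, read 54368 and 76737 in R5, against 13044, 15204 and 19359 in R2, a firm change of 2.04 ± 0.32 (SE, limma adjusted p = 0.00202), not called after centring (limma adjusted p = 0.0706). Nusap1, a spindle protein, was higher by 2.16 and lost its call without replicate 2 of R5 (limma adjusted p = 0.111). The mitotic kinases Cdk1, Plk1, Aurka and Aurkb had changes of -0.06, -0.28, 0.06 and -0.46, none of them called.

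Of 21 genes known as brakes on the cell cycle, 11 were higher in R5 and 2 lower, with a median change of 1.96, which remained positive after centring (1.02) and quantile normalization (1.94). The counts were 7 and 0 without replicate 2 of R5, and 8 and 3 after centring. Mxd1, which competes with Myc for its partner, read 9098 and 25959 in R5, against 185, 553 and 308 in R2, a firm change of 5.61 ± 0.65 (SE, limma adjusted p = 0.000289). Cdkn1b, the inhibitor p27, read 4337 and 12856 in R5, against 381, 729 and 456 in R2, a firm change of 3.89 ± 0.63 (SE, limma adjusted p = 0.0022). Cdkn2d, the inhibitor p19, and Gadd45a, a growth arrest gene, were firmly higher by 3.89 and 4.41. In each of these 4 genes replicate 2 of R5 was the brightest array and both R5 arrays exceeded all R2 arrays. Rbl1, a pocket protein, and Ccng1, a cyclin G, were lower, at -1.31 and -2.16, and both lost their calls without replicate 2 of R5 (limma adjusted p = 0.155 and 0.167), Rbl1 also without replicate 2 or 3 of R2. None of the 11 cyclins on a separate list passed the limma test, with a median of -0.92, and 6 were called lower after centring. That median was -1.17 without replicate 1 of R5 and -0.07 without replicate 2 of R5. Outside that list the cyclins Ccng2 and Ccnb2 were called higher, by 3.52 and 1.06 (limma adjusted p = 0.00778 and 0.0346). The call of Ccng2 was lost without replicate 2 of R5. That of Ccnb2 was lost in 6 of the 10 fits, and also after centring and after quantile normalization.

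Called genes of autophagy were mostly higher in R5. Of 29 autophagy genes 14 were higher in R5 and 2 lower, with a median of 1.16; the counts were 8 and 6 after centring and 8 and 0 without replicate 2 of R5. Map1lc3b, which is attached to the autophagosome membrane, read 31693 and 49735 in R5, against 5642, 3843 and 4456 in R2. Gabarapl2, of the same family, read 22147 and 43102 in R5, against 2056, 1554 and 2389 in R2. In both genes the lower R5 array lay far above the highest R2 array. Atg4a, the protease that trims such proteins, and Ulk1, the kinase that starts autophagy, were higher by 4.62 ± 0.48 (SE, limma adjusted p = 0.00015) and 3.73 ± 0.38 (SE, limma adjusted p = 0.000124). The calls of all 4 were firm. Atg3 and Atg5, which act in conjugation, were lower, at -1.97 and -1.68 and lost their calls without replicate 2 of R5 (limma adjusted p = 0.106 and 0.0726).

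Of 30 ubiquitin enzymes 14 were higher in R5 and 3 lower, with a median of 1.43, and the rises numbered 14 or 15 in each fit without 1 array. Rnf11, a RING finger protein, read 36529.5 and 56754 in R5, against 1037, 1237 and 964 in R2, a change of 5.41 ± 0.34 (SE, limma adjusted p = 1.76e-05). Ube2h, known for its abundance in late erythroblasts, read 22360.2 and 52420.3 in R5, against 626, 840.2 and 709 in R2, a change of 5.57 ± 0.47 (SE, limma adjusted p = 4.98e-05). Ube2o, which in mouse reticulocytes marks ribosomal proteins for removal, read 12056 and 34191 in R5, against 265, 414 and 347 in R2, a change of 5.92 ± 0.55 (SE, limma adjusted p = 7.95e-05). The R5 arrays lay far above the R2 arrays in all 3, and the calls were firm. The 3 falls were Ube2g1, Ube2g2 and Ube2k, at -1.28, -1.48 and -1.56, each lost without replicate 2 of R5 (limma adjusted p = 0.16, 0.153 and 0.0512), Ube2g1 also without any 1 R2 array and Ube2g2 without replicate 1 of R2. With arrays centred on their medians 13 genes of the list were higher and 8 lower.

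The proteasome degrades ubiquitin-tagged proteins. Of its 41 genes 2 were higher in R5 and 10 lower, with a median change of -0.59. The falls numbered 5 without any 1 R2 array, 15 without replicate 1 of R5 and 27 after centring. The 2 rises were in activators: Psme3, the PA28 gamma subunit, read 14598 and 32579.7 in R5, against 2906, 1959 and 2213 in R2, a firm change of 3.23 ± 0.39 (SE, limma adjusted p = 0.000336), and Psme4, PA200, changed by 2.01, lost without replicate 2 of R5 (limma adjusted p = 0.114). Psmd7, a lid subunit of the regulatory particle, read 1262 and 1086 in R5, against 5912, 3668 and 6002 in R2, a firm change of -2.11 ± 0.32 (SE, limma adjusted p = 0.00164). Without replicate 2 of R5 the list had 1 rise and 1 fall.

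Energy metabolism had calls in both directions, to be read against the 11.6% and 9.31% of all genes called higher and lower. Of 19 genes of glycolysis and the pentose phosphate pathway 2 were higher in R5 and 2 lower, with a median of -0.65. The falls numbered 0 without replicate 2 of R5, 7 without replicate 1 of R5 and 7 after centring. Slc2a1, the glucose carrier Glut1, read 81603 and 106820.3 in R5, against 2456, 3113 and 1633 in R2, a firm change of 5.33 ± 0.35 (SE, limma adjusted p = 2.32e-05). Bpgm, which makes the bisphosphoglycerate that lowers the oxygen affinity of hemoglobin, read 30837 and 83685 in R5, against 751, 1009 and 1373 in R2, a firm change of 5.65 ± 0.54 (SE, limma adjusted p = 8.95e-05). Pgd, of the pentose phosphate pathway, was lower (-3.05 ± 0.62 SE, limma adjusted p = 0.00806) and lost its call without replicate 2 of R5 (limma adjusted p = 0.0986). Pklr, the erythroid and liver pyruvate kinase, was lower, at -1.18 and lost its call in 6 of the 10 fits. Of 40 respiratory chain genes 4 were higher and 7 lower, with a median of -0.46; none was called without replicate 2 of R5. After centring none was higher and 24 lower. The 4 rises, Cox6a1, Ndufa1, Cox7a2 and Atp5b at 1.49, 0.93, 1.01 and 1.02, were not called after quantile normalization, and they lost their calls in 2, 9, 10 and 9 of the 10 fits without 1 array. No such fit called more than 2 rises in the list, and the falls ranged between 0 and 10.

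Of 20 antioxidant genes 10 were higher in R5 and 1 lower, with a median of 1.27, although 2 were higher and 4 lower after centring. Prdx2, the main peroxiredoxin of red cells, read 79013 and 94309.8 in R5, against 17350.0, 17310.5 and 25390.3 in R2, a firm change of 2.13 ± 0.32 (SE, limma adjusted p = 0.00142). Cat, catalase, which hepatocytes also express, read 18863 and 58938 in R5, against 2701, 6826 and 5087 in R2, and its change of 2.88 lost its call without replicate 2 of R5 (limma adjusted p = 0.137). Nqo1 and Gclm, targets of the stress factor Nrf2, were firmly higher by 2.45 ± 0.39 (SE, limma adjusted p = 0.00205) and 2.17 ± 0.38 (SE, limma adjusted p = 0.00368). Prdx2 and Gclm were not called after centring (limma adjusted p = 0.0533 and 0.0624). Blvra, biliverdin reductase, was the 1 fall (-1.49), lost in 3 of the 10 fits. Without replicate 2 of R5, 4 genes of the list were called higher.

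Of 16 amino acid transporters 6 were higher in R5 and none lower; the counts were 4 and 0 without replicate 2 of R5, and 4 and 3 after centring. Slc6a9, the glycine carrier that supplies heme synthesis, read 5590.2 and 14881 in R5, against 416, 744 and 908 in R2, a firm change of 3.80 ± 0.48 (SE, limma adjusted p = 0.000523). Slc43a1, a carrier of large neutral amino acids, Slc16a10, of aromatic ones, and Slc1a5, of glutamine, were firmly higher by 3.25, 3.46 and 3.10. Cholesterol synthesis had 3 falls and no rise among 19 genes. None was called without replicate 2 of R5 or without replicate 1 or 3 of R2, whereas 9 were lower after centring, and after quantile normalization 2 were higher and none lower.

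Of 33 genes of chromatin and the nucleus 3 were higher in R5 and 3 lower on the deposited scale, whereas 2 were higher and 14 lower after centring. Without replicate 2 of R5 the counts were 2 and 0, and without replicate 1 of R5 they were 3 and 5. Besides Xpo7, the linker histone H1f2 was firmly higher, at 36858 and 86080.1 in R5, against 3412, 2778 and 1579.5 in R2, a change of 4.51 ± 0.43 (SE, limma adjusted p = 9.1e-05). Hdac6, a cytoplasmic deacetylase, was higher by 1.33, and Hdac2, Hdac3 and the export receptor Xpo1 were lower, at -1.71, -1.07 and -1.13; each of these 4 lost its call without replicate 2 of R5 (limma adjusted p = 0.176, 0.149, 0.195 and 0.0716), and they lost it in 7, 1, 5 and 4 of the 10 fits. Of 21 genes tied to enucleation and the cytoskeleton 5 were higher and none lower; the counts were 2 and 0 without replicate 2 of R5, 3 and 0 without replicate 2 of R2, and 1 and 5 after centring. Tmcc2, a transmembrane protein, read 84082 and 119329.8 in R5, against 689, 4433 and 1328 in R2, a firm change of 5.97 ± 0.83 (SE, limma adjusted p = 0.000935), and Tubb1, a beta-tubulin, was higher by 2.24 ± 0.46 (SE, limma adjusted p = 0.00841), also firm but not called after centring (limma adjusted p = 0.0618). Hipk2, a kinase with a known part in fetal liver erythropoiesis, read 19761 and 29916 in R5, against 1812, 3109 and 3672 in R2, a firm change of 3.15 ± 0.40 (SE, limma adjusted p = 0.000528). Of 17 adhesion genes 8 were higher and 2 lower, and the counts were 2 and 0 without replicate 2 of R5, 5 and 1 after quantile normalization, and 1 and 4 after centring. Tspan33, a tetraspanin, was firmly higher by 2.69 ± 0.37 (SE, limma adjusted p = 0.000935), and Cd24a, a surface glycoprotein, read 97193 and 130756 in R5, against 15862, 23971 and 34442 in R2, a change of 2.26 that was lost without replicate 2 of R5 (limma adjusted p = 0.0682). The 2 falls were Cd44 and Itgb1 (-1.01, limma adjusted p = 0.036), and that of Itgb1 was lost in 6 of the 10 fits.

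**Figure D3:**
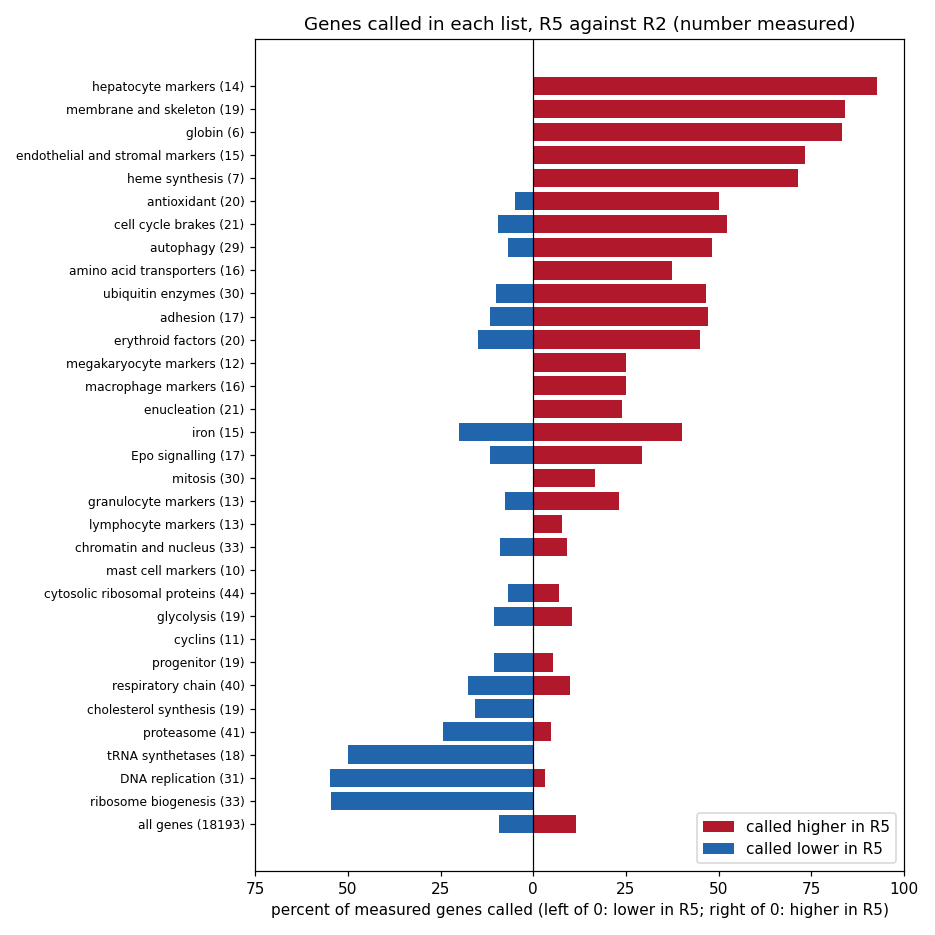
Percent of the measured genes of each list (number in brackets) called higher in R5 (red, to the right) or lower in R5 (blue, to the left), with all 18193 genes as the bottom row at 11.6% and 9.31%. Hepatocyte markers, membrane genes and globin genes have the highest shares of rises, and ribosome biogenesis, DNA replication and tRNA synthetases have the highest shares of falls.

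Of the marker lists of other liver cells, those of hepatocytes and of endothelial and stromal cells were mostly called higher in R5. Of 14 hepatocyte markers 13 were higher in R5 and none lower, with a median change of 4.75, and 11 were called without replicate 2 of R5. Their sum, given above, was higher on both R5 arrays than on any R2 array. Apoa1, a plasma apolipoprotein, read 5828 and 18985 in R5, against 169, 329 and 214 in R2, a firm change of 5.53 ± 0.50 (SE, limma adjusted p = 7.5e-05), and the fibrinogen chains Fga and Fgg were firmly higher by 5.07 and 5.02. Replicate 2 of R5 was higher in all 3 and also in the sum. None of the 14 was at 0, and all 14 lay above the array median on both R5 arrays, against 9 on all R2 arrays. Albumin (Alb), the defining product of hepatocytes, was firmly higher by 4.74.

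Of 15 endothelial and stromal markers 11 were higher in R5 and none lower, with a median of 2.82. The rises numbered 6 and 7 without replicate 1 or 2 of R5, and 7 after centring and also after quantile normalization. The sum was 7086 and 3273 in R5, against 837.0, 752.3 and 823.3 in R2, so that here replicate 1 of R5 was the higher one. Col3a1, a fibrillar collagen, read 2139.8 and 544 in R5, against 25.2, 37.2 and 77.1 in R2, a firm change of 4.70 ± 0.78 (SE, limma adjusted p = 0.00259), and Col1a2 was firmly higher by 3.40. Macrophage markers, of interest because erythroblasts mature around macrophages, had 4 of 16 higher and none lower. The rises numbered 2 and 1 without replicate 1 or 2 of R5, 1 and 2 without replicate 1 or 2 of R2, and 1 after centring. Their summed intensities were 16563 and 13198 in R5, against 8042, 11430.3 and 4518 in R2. Maf, a macrophage transcription factor, was firmly higher (2.58 ± 0.46 SE, limma adjusted p = 0.0037), and the complement genes C1qb and C1qc were higher by 1.47 and 2.48, with calls lost in 7 and 4 of the 10 fits.

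Granulocyte markers changed in both directions. Of 13 measured 3 were higher in R5 and 1 lower. The counts were 1 and 0 without replicate 2 of R5, 2 and 0 without replicate 1 of R5, 1 and 0 without replicate 1 of R2, and 1 and 4 after centring. The sum was 262616 and 284397 in R5, against 206593, 225253 and 82980.4 in R2. Mmp8, of late neutrophil granules, read 3102 and 2874 in R5, against 58.0, 227 and 42.0 in R2. Ltf, lactoferrin of such granules, read 12174 and 20065 in R5, against 1623, 6566 and 264 in R2. Elane, elastase of early granules, read 891 and 1170.3 in R5, against 20000.5, 17185 and 4457 in R2, a change of -3.50 ± 0.84 (SE, limma adjusted p = 0.0169) that was lost without either R5 array and without replicate 1 or 2 of R2. Mmp8 changed firmly by 5.19 ± 0.92 (SE, limma adjusted p = 0.0037), and Ltf by 3.47 ± 1.04 (SE, limma adjusted p = 0.0398), lost in 5 of the 10 fits. Megakaryocyte markers had 3 of 12 higher (1 without replicate 2 of R5 and 1 after centring), lymphocyte markers 1 of 13 (Gzma, 5.37, lost without replicate 2 of R5 at a limma adjusted p of 0.0535) and mast cell markers 0 of 10 by the limma test. The part of these cells in the other changes was not tested.

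**Figure D4:**
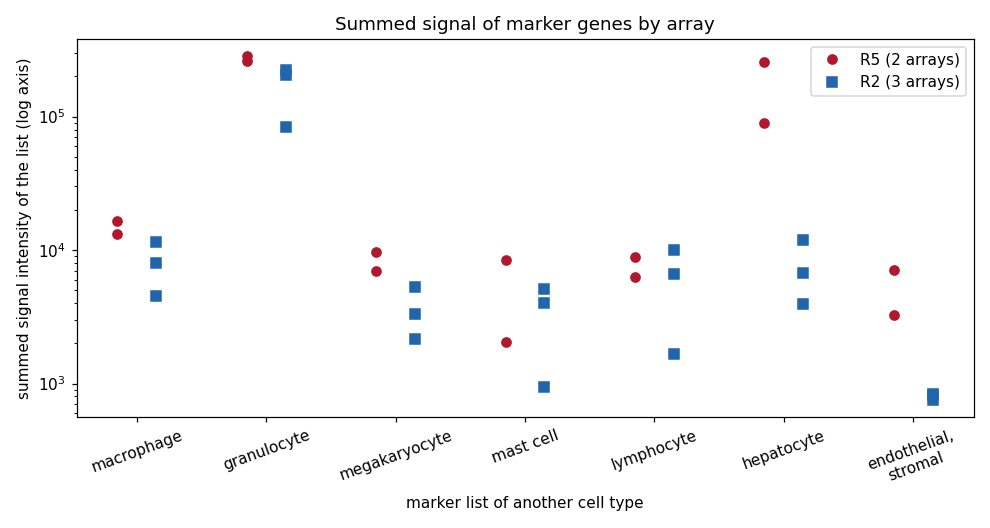
Summed signal intensity (logarithmic vertical axis) of each marker list of other cell types on every R5 array (red circles) and every R2 array (blue squares). The R5 arrays lie above all R2 arrays for hepatocyte, endothelial and stromal, macrophage, megakaryocyte and granulocyte markers, and the gap is widest for hepatocyte markers.

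Among all genes, regardless of list, the 12 with the highest rise included 3 annotated as globin genes, Hbb-b2, Hbb-bh1 and Hba-x. The probe set of Hbb-b2 may read its neighbours. Rsad2, the antiviral protein viperin, had the highest change of all at 7.54 ± 1.18 (SE, limma adjusted p = 0.00194). It read 4323 and 45603 in R5, against 25.1, 199 and 85.4 in R2, so that the R5 arrays differed from each other more than 10-fold. Runx1t1, a corepressor known as Eto, read 5458 and 15481 in R5, against 40.9, 111 and 67.0 in R2, a change of 7.09 ± 0.84 (SE, limma adjusted p = 0.000325). Tcp11l2 read 20735 and 70190.3 in R5, against 241, 736 and 259 in R2, a change of 6.73 ± 0.76 (SE, limma adjusted p = 0.000254). These 3 calls were firm, as were those of Ctsf, a lysosomal cathepsin, Grap2, an adaptor protein, Fam214b, Cfap57 and Ypel4, with changes of 7.42, 7.03, 6.87, 6.74 and 6.67. Igfbp1, a binding protein made by hepatocytes, read 485 and 3227 in R5, against 53.1, 4.46 and 4.45 in R2 and lost its call without replicate 2 of R5 (limma adjusted p = 0.0525). Of the 12, 4 lay below the median probe set in R2, where a faint signal makes a fold change imprecise.

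The 12 genes with the deepest fall were mostly faint in R5, where 11 of them lay below the median probe set. Rpl37 was the exception. Prg3, a granule protein of eosinophils, read 32.7 and 22.6 in R5, against 1739, 1469 and 177 in R2. Epx, their peroxidase, read 135 and 60.7 in R5, against 3138, 2909 and 346 in R2. R2 replicate 3 was much lower than the other R2 arrays in both. Their changes of -4.82 ± 1.48 (SE, limma adjusted p = 0.0435) and -4.02 ± 1.24 (SE, limma adjusted p = 0.0439) were lost in 5 of the 10 fits each. Firm falls were seen for Mtif3, a mitochondrial translation initiation factor (-4.12 ± 0.56 SE, limma adjusted p = 0.000796), Gatb, a mitochondrial amidotransferase subunit (-4.0 ± 0.60 SE, limma adjusted p = 0.00147), Helq, a DNA helicase (-4.01 ± 0.77 SE, limma adjusted p = 0.0057), and Enpp3, an ectonucleotidase (-4.09 ± 0.68 SE, limma adjusted p = 0.00265). For Gatb and Enpp3, and for Ccdc86 and Prmt9 among the other falls, another probe set or more had the opposite sign. The second of the 2 Gatb probe sets changed by 1.52, and 3 of the 5 Enpp3 probe sets changed by 3.45, 2.69 and 0.96; none of these was called and all lay below the median in both gates. Ccdc86, Hdac8, Prmt9, Gpr160 and Fgf13 changed by -4.81, -4.51, -4.14, -4.13 and -3.98, and each lost its call without replicate 2 of R5 (limma adjusted p = 0.121, 0.219, 0.095, 0.211 and 0.117), Hdac8 in 4 and Gpr160 in 5 of the 10 fits.

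The change was last divided at R3, the gate of high CD71 and high Ter119 that follows R2, measured on 3 arrays. R3 against R2 gave 1941 called genes (10.7%), and R5 against R3 gave 0 called genes in limma (0.0%), although 2852 genes (15.7%) had an unadjusted p under 0.05 there. Both steps use the same R3 arrays, so that a high R3 value raises one and lowers the other. The median of heme genes was 2.53 in the step R3 minus R2 and -0.06 in the step R5 minus R3, and that of membrane genes was 2.52 and 0.35. Ribosome biogenesis gave -1.84 and -0.31. DNA replication differed, with 0.22 in the first step and -1.48 in the second. Mitotic genes gave 1.04 and -0.64, and progenitor genes gave -1.39 and 1.52. Cell cycle brakes were positive in both steps (1.68 and 0.85), as were ubiquitin enzymes (0.95 and 0.68). Hepatocyte markers had 3.74 in the first step and 0.94 in the second. Medians of all genes were 0.14 and 0.33.

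**Figure D5:**
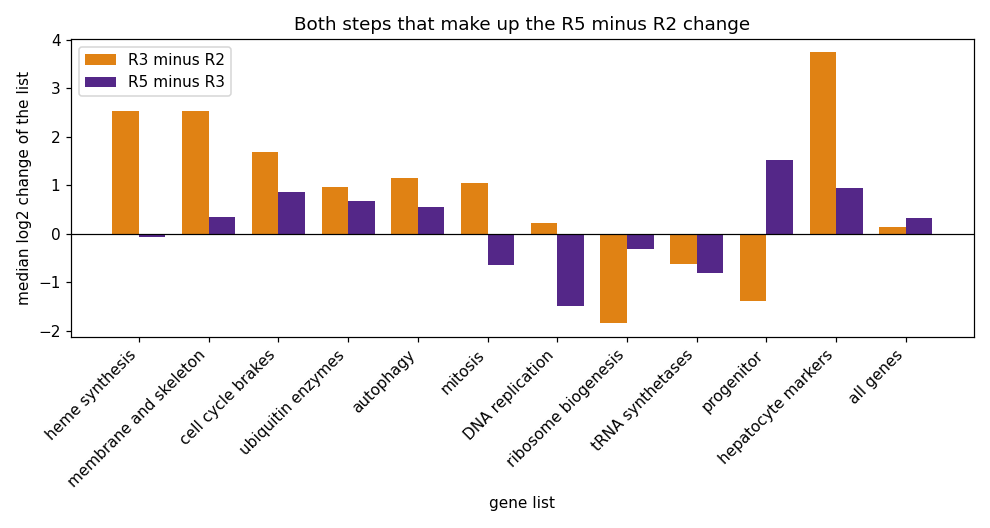
Median log2 change (vertical axis) of 11 gene lists and of all genes in the step R3 minus R2 (orange) and in the step R5 minus R3 (purple), which share the R3 arrays. Heme, membrane and ribosome biogenesis genes have most of their change in the first step, DNA replication genes in the second, and mitotic and progenitor genes change sign between the steps.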

How the data were processed

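Total RNA of sorted fetal liver cells was measured on 11 arrays. The labels name Cy5 labelling, while the values are MAS5 signals of probe sets, and they were used here as single-channel intensities. The deposited intensities are 1 linear value per probe set and array, made with MAS5 per the submitters' processing notes; the authors' deposited ratios were not used. Tested on the values, the array means after trimming 2% at both ends averaged 500.0 over the 11 arrays, and the authors' scaling was kept. No detection calls were used. Scan dates are not given in the sources used here. The labels state that a set of replicates shared its extraction date, without saying whether a set is a gate or a replicate number, so extraction date and gate may not be told apart.

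From the deposited intensities log2 was taken, with no floor or pseudocount. The 64 control probe sets were left out and 45037 were fitted with limma 3.58.1 (R 4.3.3), with a mean for each gate over all 11 arrays, the contrast R5 minus R2, and eBayes with an intensity trend; p-values were adjusted by Benjamini-Hochberg over all 45037 and called under 0.05. Errors are standard errors of that fit. GEO's platform annotation gave 1 gene for 34945 probe sets, several for 932 and none for 9160, and the probe set with the highest mean log2 intensity stood for each of 18193 genes. Of 2151 called genes with several probe sets, 568 had one of opposite sign and 38 a called one. The number of arrays limits the precision, and with 2 and 3 arrays an exact permutation test could not reach 0.05.

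Named genes were the 12 largest called rises and the 12 largest called falls with no overlap between arrays and a brighter gate at or above the median probe set, leaving out unnamed transcripts; up to 4 called genes of each list by size of change; any called gene that went against the majority of its list; all stage marker, globin and heme genes; Tfrc; and Hipk2. Other list members are given to describe a list and were picked after their values were seen. Members and lists were chosen with earlier results of these data known. Of 748 listed genes 663 were measured; the others were not analysed here. Promoter windows came from RefSeq (GRCm38.p6). The steps were checked on simulated data.

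Alternatives were other scalings, a pseudocount of 32, a filter on dim probe sets, fits of fewer arrays and fits without each array in turn.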

Additional observations from a re-analysis of the deposited data

How the results depend on the processing

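The total of 7678 called probe sets became 5108 without the intensity trend and 4097 in a fit of the R5 and R2 arrays alone. The 4515 rises became 2515 with R5 and R2 arrays alone, 2702 after quantile normalization and 1997 with arrays centred on their medians. The 3163 falls became 1210 without the trend, 1582 with R5 and R2 arrays alone and 9349 after centring. Leaving out each array in turn gave totals of 1672 to 8323, with 1092 to 4266 rises and 580 to 4758 falls; the lowest were without replicate 2 of R5, and without replicate 1 or 2 of R2 the totals were 4191 and 4223. Deviations of same-numbered arrays from their gate means correlated between -0.0421 and 0.1941, and those of differently numbered arrays between -0.1941 and 0.0935. In R1 and R5, with 2 arrays each, the deviations of one array mirror those of the other, so these values are not independent. The main fit did not pair arrays by number, and whether the number marks a shared batch was not tested. With the replicate number as a block 8889 probe sets were called, 4906 higher and 3983 lower. Of the 168 named genes 2 lost and 1 gained a call under this block. However, 50 of the 168 lost their call without the intensity trend, and 38 in the fit of the R5 and R2 arrays alone. The word firm does not cover these fits. A pseudocount of 32 gave 9969 calls and the filter on dim probe sets 7720. Counted by gene, 3801 calls (2107 rises and 1694 falls) became 4321 (2188 and 2133) when 1 bright probe set per gene was tested alone, an alternative chosen after seeing the data. The change of Ndufa1 reversed to -0.007 after centring (limma adjusted p = 0.993), which lowers every change by 0.94. The causes of the other shifts were not tested. Low signal limits the dim end of the scale: 384 genes below the median in both gates were called higher in R5 and 3 lower.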
